A study of Mus musculus with 33 samples.

Results

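Germinal vesicle oocytes are arrested before meiosis resumes, and their chromatin passes from a non-surrounded nucleolus (NSN) form to a surrounded nucleolus (SN) form. The genes described here are the 150 genes with the highest SN over NSN level in Nlrp5 +/+ oocytes, out of 8407 genes that could be chosen and 35321 in the table. A gene could be chosen if its mean over Nlrp5 +/+ oocytes was at least 10 CPM (counts per 1000000 counts on genes), if it lay outside chromosomes MT, X and Y, and if its symbol did not begin with Zfp, Rpl, Rps, Psm or Kif. The genes were ranked by log2 of mean SN level plus 1 over mean NSN level plus 1. The genes were thus selected on the measured CPM of Nlrp5 +/+ oocytes, whose values are given only as a description, and the question asked is how the same genes behaved in Nlrp5 +/- and Nlrp5 -/- oocytes, which had no part in the choice.

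RNA was sequenced from 33 single germinal vesicle oocytes, all from C57BL6/Babr mice aged 3 weeks. Nlrp5 encodes NALP5, a core protein of the subcortical maternal complex of the egg, and the mutant allele is a frameshifting deletion made by CRISPR/Cas9. Nlrp5 +/+ oocytes comprised 6 SN and 4 NSN oocytes, Nlrp5 +/- oocytes carrying 1 mutant allele 7 SN and 9 NSN, and Nlrp5 -/- oocytes 2 SN and 4 NSN. The Nlrp5 -/- oocyte 15 has no stage and is shown apart. Oocytes are called here by the number in their labels. According to the study's methods, Nlrp5 -/- and Nlrp5 +/- females were littermates and Nlrp5 +/+ females usually came from the colony of origin. All libraries ran in the same lane and each second index sequence was used with more than 1 genotype, but each first index sequence was used with 1 genotype. The first index was also tied to stage in part: Nlrp5 +/- oocytes 37 to 40 shared an index and were all SN, and oocytes 61 to 64 shared another and were all NSN. The sources do not say what a first index marks, and its part in differences between genotypes cannot be told apart from genotype. Differences between stages are also given within the sets of oocytes that share a first index and hold both stages, a comparison added after the data were seen.

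The SN transition takes place late in oocyte growth, when chromatin condenses around the nucleolus and transcription falls silent. SN oocytes complete meiosis and support embryo development more often than NSN oocytes. CPM is a share of a library, so more of a given RNA and less of all the others cannot be told apart.

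The study called stage from the expression of marker genes in the same libraries, not from DNA staining, so stage and expression are not separate measurements. Of the 150 genes, 2 (Nckap5 and Oosp3) are among the study's 59 SN markers and none is among its 105 NSN markers. The study's own clustering placed the SN oocyte 55 among NSN oocytes and the NSN oocyte 61 apart from the rest. The labels name no mouse, so oocytes of 1 genotype and stage may share an animal. They were treated as 1 sample, no test was made between stages or genotypes, and each standard deviation (SD) is over oocytes. Genes are counted as higher by any amount, by at least 1.5-fold or by at least 2-fold, always on means plus a pseudocount of 1, and beside the first count of each kind stands the percent of all 8407 genes that met the same mark. Log2 differences are on this scale and are smaller than the true change for low genes.

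Depth ranged from 4223595 to 15573360 counts on genes per oocyte. Oocyte markers were present throughout, at a summed 16325 to 32375 CPM. Granulosa cells surround the oocyte in the follicle, and their markers outside the 150 genes summed to 33.8 to 87.9 CPM in every oocyte except the Nlrp5 -/- oocytes 7 (148 CPM), 13 (202 CPM), 14 (399 CPM) and 15 (1080 CPM). All 15 markers of the whole list had a count in oocytes 14 and 15, and 7 to 14 of them in the other oocytes. Detection differed by marker. Amh and Foxl2 had a count in 1 and 2 of the 10 Nlrp5 +/+, 7 and 9 of the 16 Nlrp5 +/- and 5 and 4 of the 7 Nlrp5 -/- oocytes. Kitl and Nr5a2 had a count in every oocyte, and Fshr in 9 Nlrp5 +/+, 12 Nlrp5 +/- and 6 Nlrp5 -/- oocytes. Theca and interstitial cell markers summed to 3.86 to 7.15 CPM in Nlrp5 +/+ oocytes. They summed to at least 8.29 CPM in every Nlrp5 +/- and 14.5 CPM in every Nlrp5 -/- oocyte. None exceeded 50.5 CPM except oocytes 54 (121 CPM), 14 (239 CPM), 61 (357 CPM) and 15 (726 CPM).

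Promoter windows from RefSeq (GRCm38.p6), which run from 250 bases before to 50 bases after an annotated start, were found for 103 of the 150 genes. The 5 windows below belong to genes that were at least 2-fold higher in SN oocytes of both mutant genotypes. They are shown because the 150 genes differed from the other genes in promoter base composition, and they include CG-poor and CG-rich examples. Capitals mark the letters of motifs that are named in the next paragraph and were searched on both strands. Whether oocytes use these start sites was not tested.
Selp (chr1:164115014-164115313, plus strand): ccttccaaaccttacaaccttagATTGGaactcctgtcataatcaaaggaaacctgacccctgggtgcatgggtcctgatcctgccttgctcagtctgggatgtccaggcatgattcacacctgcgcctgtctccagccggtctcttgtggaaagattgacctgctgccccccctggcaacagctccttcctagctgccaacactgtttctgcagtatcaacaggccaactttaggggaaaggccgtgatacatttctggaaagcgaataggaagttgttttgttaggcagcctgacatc
Slco1a5 (chr6:142322932-142323231, minus strand): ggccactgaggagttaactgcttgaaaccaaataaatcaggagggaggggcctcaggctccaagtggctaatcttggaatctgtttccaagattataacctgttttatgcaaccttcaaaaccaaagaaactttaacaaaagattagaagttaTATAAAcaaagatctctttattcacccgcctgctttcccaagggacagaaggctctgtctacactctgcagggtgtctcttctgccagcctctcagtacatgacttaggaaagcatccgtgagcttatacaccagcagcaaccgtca
Slc28a2b (chr2:122484691-122484990, plus strand): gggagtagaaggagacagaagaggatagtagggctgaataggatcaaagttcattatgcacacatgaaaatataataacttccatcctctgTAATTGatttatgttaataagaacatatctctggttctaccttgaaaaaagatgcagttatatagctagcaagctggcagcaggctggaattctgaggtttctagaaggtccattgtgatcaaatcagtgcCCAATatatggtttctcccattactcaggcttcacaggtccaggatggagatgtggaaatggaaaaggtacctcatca
Atrnl1 (chr19:57610784-57611083, plus strand): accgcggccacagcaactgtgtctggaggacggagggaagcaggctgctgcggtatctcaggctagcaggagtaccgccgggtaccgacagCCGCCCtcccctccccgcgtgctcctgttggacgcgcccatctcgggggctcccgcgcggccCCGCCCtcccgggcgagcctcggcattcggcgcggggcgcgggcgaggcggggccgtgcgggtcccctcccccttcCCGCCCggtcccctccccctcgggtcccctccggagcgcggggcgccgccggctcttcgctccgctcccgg
Man1a (chr10:54075688-54075987, minus strand): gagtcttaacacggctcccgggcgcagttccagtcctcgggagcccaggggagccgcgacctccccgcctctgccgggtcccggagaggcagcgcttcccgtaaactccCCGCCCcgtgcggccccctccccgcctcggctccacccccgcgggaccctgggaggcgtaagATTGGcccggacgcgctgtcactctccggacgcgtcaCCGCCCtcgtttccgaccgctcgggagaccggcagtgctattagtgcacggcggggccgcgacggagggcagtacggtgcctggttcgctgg

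The Slc28a2b window holds no CG pair, those of Slco1a5 and Selp hold 3 and 4, and those of Man1a and Atrnl1 hold 38 and 41. Over all 143 windows of the 150 genes the median was 10 CG pairs, against 21 in the 8324 windows of all genes that could be chosen and 7 in all 32851 windows of the table. GGGCGG, the core of the GC box, was present in 40.6% of the windows of the 150 genes, 62.4% of windows of genes that could be chosen and 35.7% of all windows. TATAAA, the core of the TATA box, was present in 14.7%, 7.02% and 13.6%. CCAAT was present in 34.3%, 38.7% and 37.4%, CACGTG in 5.59%, 10.3% and 7.15%, and TAATTG in 9.79%, 5.5% and 8.0%. No window of the 150 genes held TGACGTCA, which 3.26% of windows of genes that could be chosen and 1.79% of all windows held. In these letters the windows lay nearer to the average promoter of the genome than to that of genes expressed in the oocyte.

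In Nlrp5 +/+ oocytes the 150 genes together took 8906 to 9896 CPM in the 6 SN oocytes, with a median of 9561 CPM. The NSN oocytes had 5521 CPM (oocyte 70), 4900 CPM (oocyte 78), 2571 CPM (oocyte 79) and 4995 CPM (oocyte 87). Oocyte 79 stood below the other NSN oocytes and had the lowest value of its group for 124 of the 150 genes. The log2 difference between SN and NSN ran from 0.83 to 3.11 with a median of 1.06, and 85 genes were at least 2-fold higher (1.01% of all). All 150 were at least 1.5-fold higher (4.54% of all) and, like 46.1% of all, higher in SN, which the rule itself fixes. None was at least 2-fold lower (4.78% of all). The groups did not overlap for 73 genes with SN above NSN (2.27% of all) and for none with SN below (7.07% of all). When each Nlrp5 +/+ oocyte was left out in turn, the rule still chose 115 to 136 of the 150 genes, and 117 without oocyte 79. Over all these choices 75 genes were chosen every time. Within sets that share a first index and hold both stages, the median was 0.77 among oocytes 69 to 72 (-0.01 for all genes that could be chosen). It was 1.47 among oocytes 77 to 80 (-0.03 for all), the set that holds oocyte 79, and 0.87 among oocytes 85 to 87 (-0.12 for all). These oocytes chose the genes, so medians above 0 are favoured by the rule here and are only a description.

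**Figure D1:**
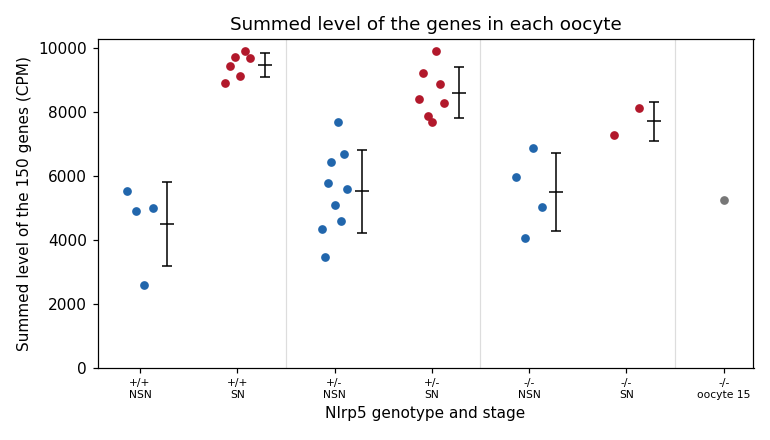
Summed level of the 150 genes in CPM in each of 33 oocytes, by Nlrp5 genotype and stage, with bars for the mean and SD over oocytes. SN oocytes (red) lay above all NSN oocytes (blue) of the same genotype, with a gap of 3384 CPM in the Nlrp5 +/+ oocytes that chose the genes and of 13.6 and 389 CPM in Nlrp5 +/- and Nlrp5 -/- oocytes.

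In Nlrp5 +/- oocytes the 150 genes together took 7684 to 9918 CPM in the 7 SN oocytes, with a median of 8393 CPM. The 9 NSN oocytes had 3470 to 7670 CPM, with a median of 5589 CPM. The groups did not overlap, but the highest NSN oocyte (61, with 7670 CPM and the theca marker counts given above) was 13.6 CPM below the lowest SN oocyte (40). The mean was 8606 ± 789 CPM (SD, n = 7) in SN and 5516 ± 1299 CPM (SD, n = 9) in NSN oocytes, a ratio of 1.56. Among Nlrp5 -/- oocytes the SN values were 7273 CPM (oocyte 7) and 8134 CPM (oocyte 31), and the NSN values were 5966 CPM (oocyte 13), 4050 CPM (oocyte 14), 6884 CPM (oocyte 29) and 5018 CPM (oocyte 30). These groups did not overlap either, and the ratio of their means was 1.41. Pooled over oocytes, the level was 8669 CPM (95% Poisson interval 8644 to 8695) in Nlrp5 +/- SN and 7831 CPM (7789 to 7874) in Nlrp5 -/- SN oocytes. The intervals cover counting error only and are far narrower than the spread between oocytes. The unstaged Nlrp5 -/- oocyte 15 had 5253 CPM, within the NSN range.

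Gene by gene, 141 of the 150 genes had a higher mean in SN than in NSN Nlrp5 +/- oocytes, where 47.4% of all genes that could be chosen did. The median log2 difference was 0.62 for the 150 genes and -0.02 for all 8407. At least 2-fold higher were 27 of the 150 genes (0.511% of all), and none was at least 2-fold lower (2.20% of all). At least 1.5-fold higher were 80 (3.83% of all). None had all SN below all NSN oocytes (0.928% of all). All SN oocytes exceeded all NSN oocytes for 10 genes (0.607% of all), namely Lmo3, Selp, Csmd3, Atrnl1, Rims1, Man1a, Cntn6, Lrrtm2, Gm36307 and Extl1. Without oocytes 55 and 61 this count was 23 (1.49% of all), and without oocyte 61 alone it was 18 (0.928% of all).

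Within a first index the size of the Nlrp5 +/- difference depended on the set. Among oocytes 45 to 48 (2 SN and 2 NSN) the median log2 difference of the 150 genes was 1.33 (-0.06 for all genes that could be chosen), with 143 higher in SN (45.7% of all) and 104 at least 2-fold higher (3.35% of all). Among oocytes 53 to 56, where the only SN oocyte is 55, it was 0.48 (-0.08 for all), with 110 higher (45% of all) and 33 at least 2-fold higher (3.75% of all). Summed levels did not overlap in either set, with 8878 and 9918 CPM in SN against 3470 and 4350 CPM in NSN oocytes of the first, and 8267 CPM in SN against 5080 to 6429 CPM in NSN oocytes of the second.

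A higher mean in SN than in NSN Nlrp5 -/- oocytes was found for 136 of the 150 genes (47.4% of all). The median log2 difference was 0.61 for the 150 genes and -0.03 for all genes that could be chosen. At least 1.5-fold higher were 77 genes (6.73% of all) and at least 2-fold higher 39 (0.952% of all), and none was at least 2-fold lower (3.95% of all). Both SN oocytes exceeded all NSN oocytes for 55 genes (9.41% of all). Without oocyte 7, which leaves 1 SN oocyte, the count was 93, but 18.7% of all genes then met the same mark. For 1 gene, Rapgef4, both SN oocytes lay below all NSN oocytes (9.98% of all). Without the NSN oocytes 13 and 14, which had the most granulosa marker counts among staged NSN oocytes, the median log2 difference was 0.56 and 39 genes were at least 2-fold higher (1.94% of all). The part of granulosa RNA in these values was not tested. Only oocytes 29 to 31 share a first index and hold both stages. Among them the median was 0.63 (-0.02 for all), with 131 genes higher in the SN oocyte 31 (47.7% of all) and 42 at least 2-fold higher (1.63% of all).

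**Figure D2:**
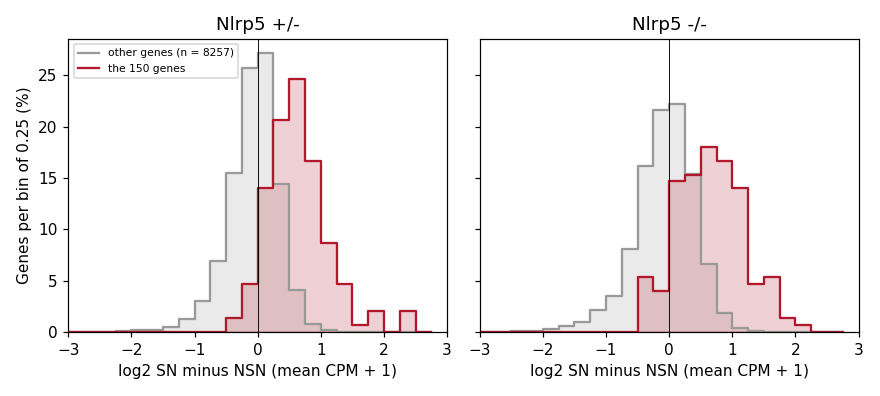
Percent of genes in each bin of the log2 difference between SN and NSN oocytes, in Nlrp5 +/- (left) and Nlrp5 -/- (right) oocytes, for the 150 genes (red) and the other 8257 genes that could be chosen (grey). The red histograms are centred near 0.62 and 0.61, and the grey ones near 0.

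Both mutant genotypes gave a higher SN mean for 128 of the 150 genes (27.2% of all), and at least 1.5-fold for 44 (0.916% of all). The differences in the mutant genotypes had r = 0.24 with each other across the 150 genes and r = 0.43 across all 8407. These coefficients are descriptions over genes measured in the same libraries, and the Nlrp5 -/- differences rest on 2 SN oocytes. At least 2-fold higher in both mutant genotypes were 14 of the 150 genes, against 15 (0.178%) of all 8407. They were Lmo3, Selp, Csmd3, Atrnl1, Man1a, Rrh, Slco1a5, Thsd7b, Ttc41, Cntn6, Slc28a2b, Gm47847, Tuba3b and Csrnp3. Whichever 1 oocyte was left out, 5 of them (Selp, Csmd3, Slco1a5, Thsd7b and Gm47847) stayed at least 2-fold higher in both, and these were also the only 5 among all 8407. The other 9 fell below 2-fold in Nlrp5 -/- oocytes without 1 oocyte, Lmo3 to 0.67 and Rrh to 0.83 without oocyte 14, and Cntn6 to -0.08, Ttc41 to 0.16, Csrnp3 to 0.65, Atrnl1 to 0.76 and Man1a to 0.94 without oocyte 31. Slc28a2b fell to 0.76 without oocyte 14, and Tuba3b to 0.76 without oocyte 13 and, in Nlrp5 +/- oocytes, to 0.98 without oocyte 54. The remaining gene, Nfkbiz, which encodes a regulator of NF-kappaB, was named after its values were seen and had log2 differences of 1.73 in Nlrp5 +/- and 1.27 in Nlrp5 -/- oocytes, the latter 0.27 without oocyte 7. In Nlrp5 +/+ oocytes its difference was 0.27, at rank 1564. The groups did not overlap in either mutant genotype for 4 genes (0.119% of all), Lmo3, Selp, Csmd3 and Gm36307.

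**Figure D3:**
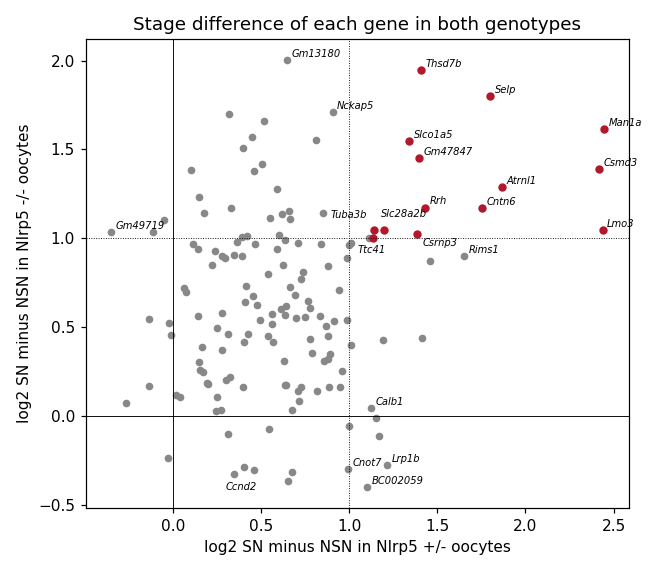
Log2 difference between SN and NSN oocytes of each of the 150 genes in Nlrp5 +/- (x axis) and Nlrp5 -/- (y axis) oocytes. Dotted lines mark 2-fold, red points are the 14 genes past it in both, and 128 points lie above 0 on both axes.

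Among the 150 genes were 10 known from synapses and the neuronal surface. These and the groups that follow were formed after their values were seen. Of all 150 genes, 94% were higher in SN Nlrp5 +/- and 90.7% in SN Nlrp5 -/- oocytes, and 18% and 26% at least 2-fold. Group counts near these shares are no result about a group. How common such groups are among all 8407 genes was not computed. Of the 10 genes, 9 were higher in SN Nlrp5 +/- oocytes and 6 at least 2-fold, and 9 and 2 were in Nlrp5 -/- oocytes. Csmd3 encodes a large membrane protein with CUB and sushi domains (chromosome 15, 47580637 to 48792063, minus strand, in the GRCm38 coordinates of the table, as for the genes that follow). It ranged from 56.1 to 92.4 CPM with a median of 62.8 CPM in SN Nlrp5 +/- oocytes and from 1.22 to 22.1 CPM with a median of 10.3 CPM in NSN oocytes, and these did not overlap. Its Nlrp5 -/- values were 48.9 and 55.4 CPM in SN and 38.1, 1.94, 23.7 and 13.3 CPM in NSN oocytes, also without overlap. The log2 differences were 2.42 and 1.39.

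Rims1 encodes a scaffold of the presynaptic active zone. It ranged from 56 to 89.5 CPM (median 72.3) in SN and from 9.93 to 47.2 CPM (median 17.9) in NSN Nlrp5 +/- oocytes, a log2 difference of 1.65. For Nlrp5 -/-, SN oocyte 7 (21.4 CPM) fell within the NSN values of 33.6, 5.33, 35.9 and 15.9 CPM and SN oocyte 31 (65.0 CPM) above them, and without oocyte 31 the log2 difference of 0.90 became -0.08. Cntn6, a contactin of the neuronal surface, had a log2 difference of 1.75 in Nlrp5 +/- and 1.17 in Nlrp5 -/- oocytes, but in the latter it had 6.44 CPM in SN oocyte 7 and 26.9 CPM in oocyte 31, and without oocyte 31 the difference was -0.08. Lrrtm2, a postsynaptic adhesion protein with leucine-rich repeats, differed by 1.41 and 0.44. Its relative Lrrtm3 differed by -0.02 in Nlrp5 +/- and 0.52 in Nlrp5 -/- oocytes, and in the former SN values ran from 8.71 to 18.1 CPM and NSN values from 3.89 to 28.2 CPM. Cacna2d1, an auxiliary subunit of calcium channels, differed by 0.46 in Nlrp5 +/- and by -0.30 in Nlrp5 -/- oocytes, or 0.07 in the latter without oocyte 7.

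Of 8 genes known from immune and blood cells, Selp had the highest differences. It encodes P-selectin, an adhesion receptor of platelets and endothelium (chromosome 1, 164115264 to 164150026, plus strand). Selp ranged from 19.7 to 57.4 CPM (median 36.4) in SN and from 3.41 to 18.8 CPM (median 9.92) in NSN Nlrp5 +/- oocytes. The Nlrp5 -/- oocytes had 38.3 and 36.2 CPM in SN and 11.8, 7.95, 13.5 and 6.66 CPM in NSN oocytes. The log2 difference was 1.80 in both genotypes, and neither overlapped. Of the 8 genes, 7 were higher in SN Nlrp5 +/- oocytes and 8 in Nlrp5 -/- oocytes, with 1 and 3 at least 2-fold higher. Oas1f, of the 2-5-oligoadenylate synthetase family, was the member with the lower mean in SN Nlrp5 +/- oocytes (-0.13). Markers of stroma, vessels and blood summed to 67.7 to 111 CPM in SN and 58.7 to 96.7 CPM in NSN Nlrp5 +/- oocytes.

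All 10 transcription and chromatin regulators had a higher mean in SN oocytes of both mutant genotypes, with 3 at least 2-fold higher in Nlrp5 +/- and 2 in Nlrp5 -/- oocytes. Lmo3, a LIM-only cofactor of transcription factors (chromosome 6, 138362918 to 138581968, minus strand), was the gene ranked highest by the rule. It ranged from 29.7 to 63.6 CPM (median 34.5) in SN and from 0 to 17.3 CPM (median 5.66) in NSN Nlrp5 +/- oocytes, a log2 difference of 2.44. The Nlrp5 -/- values were 25.2 and 25.5 CPM in SN, just above the 21.1 and 21.8 CPM of NSN oocytes 13 and 29, while oocytes 14 and 30 had 0.484 and 3.68 CPM. The log2 difference there was 1.05. Csrnp3, a nuclear protein that activates transcription, differed by 1.38 and 1.03. Pparg, the nuclear receptor known for adipocyte differentiation, differed by 0.72 and 0.17, and Esrrg, an orphan nuclear receptor, by 0.73 and 0.77.

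Man1a, a Golgi mannosidase that trims N-glycans (chromosome 10, 53904785 to 54076609, minus strand), had the highest difference in Nlrp5 +/- oocytes. It ranged from 22.1 to 38.5 CPM (median 24) in SN and from 0 to 12.1 CPM (median 2.59) in NSN oocytes, a log2 difference of 2.45. For Nlrp5 -/- the SN values were 6.96 and 16.6 CPM and the NSN values 2.6, 0.484, 8.78 and 0.789 CPM, so that SN oocyte 7 lay below NSN oocyte 29. The log2 difference there was 1.62. Chst11, a chondroitin sulfotransferase, differed by 0.59 and 0.94. All 4 genes of glycan synthesis had a higher SN mean in both mutant genotypes.

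**Figure D4:**
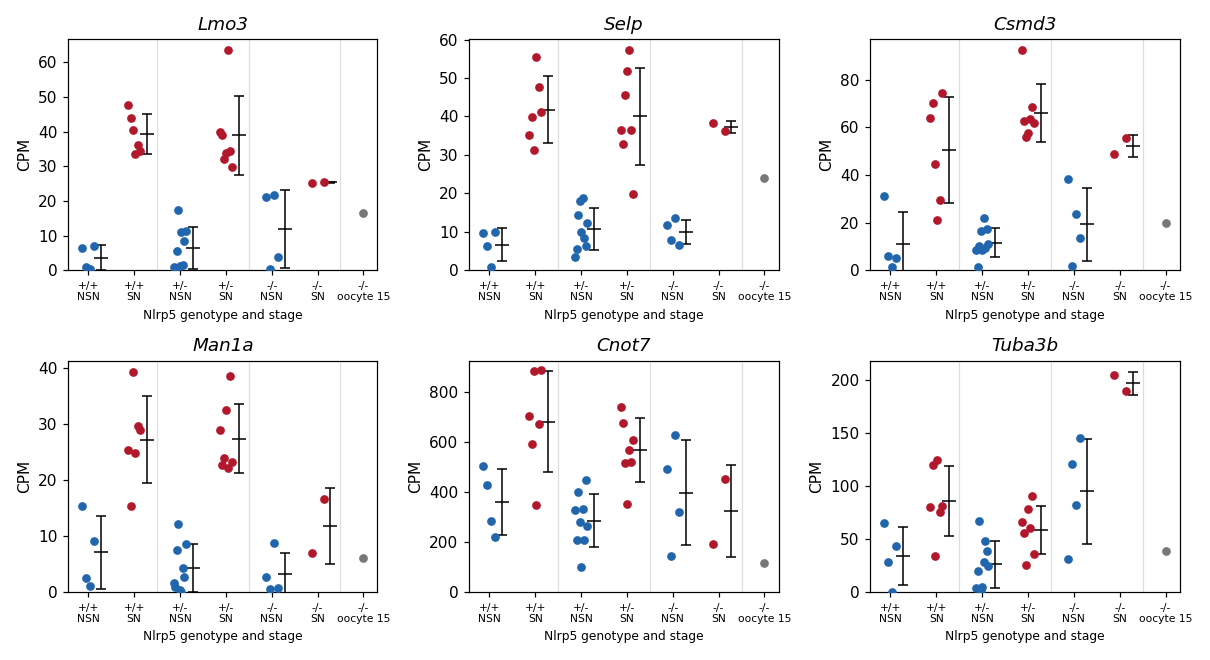
Level in CPM of Lmo3, Selp, Csmd3, Man1a, Cnot7 and Tuba3b in each oocyte, by Nlrp5 genotype and stage, with mean and SD (bars end at 0). For Lmo3, Selp, Csmd3 and Man1a every SN Nlrp5 +/- oocyte lay above every NSN oocyte, while Cnot7 had overlapping stages in both mutant genotypes and Tuba3b was highest in the SN Nlrp5 -/- oocytes.

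All 6 transporters and channels had a higher SN mean in both mutant genotypes, and 2 were at least 2-fold higher in each. Slco1a5, an organic anion transporter, ranged from 35.5 to 64.5 CPM (median 47.8) in SN and from 9.2 to 38.7 CPM (median 14.4) in NSN Nlrp5 +/- oocytes. The Nlrp5 -/- oocytes had 28.5 and 23.8 CPM in SN, below every SN Nlrp5 +/- oocyte, and 6.39, 6.78, 10 and 9.99 CPM in NSN. The log2 differences were 1.34 and 1.55. Slc28a2b, of the concentrative nucleoside transporter family, differed by 1.20 and 1.05, and Slc9b1, a sodium/hydrogen exchanger, by 0.20 and 0.18, the latter becoming -0.42 without oocyte 31. By symbol prefix the 150 genes held 3 of the 133 solute carriers that could be chosen.

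All 6 hormones, growth factors and receptors had a higher SN mean in Nlrp5 +/- oocytes and 5 in Nlrp5 -/- oocytes, and none was at least 2-fold higher (0.511% and 0.952% of all). Egfr, the receptor through which EGF-like factors act in the follicle, ranged from 35.4 to 97.6 CPM (median 73) in SN and from 15.9 to 81.7 CPM (median 35.9) in NSN Nlrp5 +/- oocytes, which overlapped. Bmp5, a growth factor of the TGF-beta family, differed by 0.63 and 0.31, and Gnrh1, which encodes the gonadotropin-releasing hormone precursor, by 0.36 and 0.98. Bmp5 overlaps Gm26903, another of the 150 genes on the other strand, and the libraries were not stranded, so reads in the overlap cannot be told apart. Prl8a2, of the prolactin family, differed by 0.55 and -0.07, the latter becoming 0.92 without oocyte 29.

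Of 13 metabolic enzymes, 11 had a higher SN mean in Nlrp5 +/- oocytes and 13 in Nlrp5 -/- oocytes, with 0 and 2 at least 2-fold higher. Hnmt, which methylates histamine, was the lowest of them in Nlrp5 +/- oocytes (-0.14, or 0.07 without oocyte 63). Cyp19a1 encodes aromatase, which makes oestrogen in granulosa cells. It ranged from 48 to 83 CPM (median 69) in SN and from 30.5 to 63 CPM (median 44) in NSN Nlrp5 +/- oocytes, a log2 difference of 0.57. Its Nlrp5 -/- levels were 40.4 and 68.3 CPM in SN and 53.5, 34.6, 33.3 and 40.5 CPM in NSN oocytes. The Nlrp5 -/- difference of 0.42 became -0.003 without oocyte 31. The level was 31.5 CPM in oocyte 15, which had the most granulosa marker counts.

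Ccnd2 encodes cyclin D2, which drives granulosa cell proliferation. Over Nlrp5 +/- oocytes it ranged from 1.42 to 46.1 CPM (median 5.93) in SN and from 0.992 to 21.9 CPM (median 3.77) in NSN oocytes. The Nlrp5 -/- oocytes had 26.8 and 27.6 CPM in SN and 41.2, 79.4, 13.9 and 2.89 CPM in NSN oocytes, with the highest NSN value in oocyte 14, and it reached 310.2 CPM in oocyte 15. The log2 differences were 0.35 and -0.33, and both signs rested on 1 oocyte, with -0.61 without oocyte 39 in Nlrp5 +/- and 0.47 without oocyte 14 in Nlrp5 -/- oocytes. Oocytes 13, 14 and 15 are also those with the most granulosa marker counts, and the part of granulosa RNA in these values was not tested. Ccnd2 and Cyp19a1 were 2 of the 3 granulosa markers that could be chosen.

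All 9 genes of the cell cycle, meiosis, RNA and protein turnover had a higher SN mean in Nlrp5 +/- oocytes and 6 in Nlrp5 -/- oocytes, and none was at least 2-fold higher. Cnot7 encodes a catalytic deadenylase subunit of the CCR4-NOT complex, which shortens poly(A) tails. It ranged from 350.4 to 741 CPM (median 567) in SN and from 100.02 to 447 CPM (median 281) in NSN Nlrp5 +/- oocytes, a log2 difference of 0.99. Among Nlrp5 -/- oocytes it had 193 and 454 CPM in SN and 492, 144, 629.6 and 322 CPM in NSN, which overlapped. The difference of -0.29 became 0.19 without oocyte 7 and 0.02 without oocyte 29, so its sign rested on single oocytes. Zdhhc2, a palmitoyltransferase gene that overlaps Cnot7 on the other strand, differed by 1.00 and -0.06, and reads in the overlap cannot be told apart. Cdc20, the activator of the anaphase-promoting complex, differed by 0.17 and 0.39, and its lowest SN Nlrp5 +/- value was 33.5 CPM in oocyte 55. Nedd4l, a ubiquitin ligase, differed by 0.15 and 0.30, and Mei4, which takes part in meiotic double-strand break formation, by 0.88 and 0.45.

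Of the lists of maturation and cell cycle genes (1 of 45 that could be chosen), deadenylation and decay genes (1 of 33) and the ubiquitin system (1 of 48), the 150 genes thus held Cdc20, Cnot7 and Nedd4l. None came from the 42 chromatin and DNA methylation genes, the 52 splicing genes, the 32 translation genes, the 71 nuclear oxidative phosphorylation genes or the 22 maternal complex and maternal effect genes of these lists that could be chosen. The 150 genes are 1.78% of the genes that could be chosen, so 0 or 1 gene of lists this short lies near that share and is no result about them. The oxidative phosphorylation list leaves out Cox6a2, a nuclear-encoded subunit of cytochrome c oxidase, which is one of the 150 genes.

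The marker Oosp3, an oocyte secreted protein gene, had the highest level per length among the 150 genes, with a mean of 1442 CPM per kb of exon in SN Nlrp5 +/- oocytes. AA545190 followed with 287 CPM per kb. Oosp3 ranged from 669.5 to 1905 CPM (median 1172) in SN and from 430.3 to 804 CPM (median 666) in NSN Nlrp5 +/- oocytes. Its Nlrp5 -/- levels were 745 and 731 CPM in SN and 541, 348, 753 and 720.1 CPM in NSN oocytes, which overlapped. The log2 differences were 0.88 and 0.32. By counts Oosp3 alone made up 13.8% of the summed level in SN Nlrp5 +/- oocytes, and the 10 highest genes 39.6%. The other marker, Nckap5, differed by 0.91 and 1.71.

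Not all of the 150 genes were higher in SN oocytes outside Nlrp5 +/+. Gm49719, Gm48704, Hnmt, Oas1f and Cox6a2 had the 5 lowest differences in Nlrp5 +/- oocytes, from -0.35 to -0.11. Of these, Hnmt and Cox6a2 changed sign when 1 oocyte (63 and 61) was left out, and the others came near 0, with -0.03 for Gm49719 without oocyte 56, -0.10 for Gm48704 without oocyte 61 and -0.07 for Oas1f without oocyte 64. BC002059, Gm7145, Ccnd2, Gm26903 and Cacna2d1 had the 5 lowest in Nlrp5 -/- oocytes, from -0.39 to -0.30. Without 1 oocyte the values turned positive for Gm7145 (0.10 without oocyte 7), Ccnd2 (0.47 without oocyte 14), Gm26903 (0.23 without oocyte 7) and Cacna2d1 (0.07 without oocyte 7), and BC002059 reached -0.009. Gm49719 differed by -0.35 in Nlrp5 +/- and 1.04 in Nlrp5 -/- oocytes, with 5.35 to 10.5 CPM in SN and 4.41 to 28 CPM in NSN Nlrp5 +/- oocytes. BC002059 went the other way, with 1.10 and -0.39. Calb1, a calcium buffer, and Lrp1b, a receptor of the LDL receptor family, were at least 2-fold higher in SN Nlrp5 +/- oocytes (1.12 and 1.22) and differed by 0.05 and -0.27 in Nlrp5 -/- oocytes, where Calb1 was -0.48 without oocyte 31. The highest differences in Nlrp5 -/- oocytes belonged to Gm13180 (2.0), Thsd7b (1.95), Selp (1.80), Nckap5 (1.71), Ankrd33b (1.70) and Dnajc5b (1.66). Without oocyte 31, Nckap5 fell to 0.77, Dnajc5b to 0.85, Ankrd33b to 1.28 and Gm13180 to 1.63.

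The summed level also varied within a stage. Over the 9 NSN Nlrp5 +/- oocytes the summed level of the 150 genes ran against that of the NSN staging markers (r = -0.95, rho = -0.93), and over the 7 SN Nlrp5 +/- oocytes likewise (r = -0.96, rho = -0.93). Without the 2 oocytes farthest from the median marker level, r was -0.98 over 7 NSN and -0.91 over 5 SN oocytes. The SN staging markers outside the 150 genes did not show such a relation in NSN oocytes (r = 0.34, rho = -0.07, and r = -0.64 without 2 oocytes). In SN oocytes they had r = 0.83 and rho = 0.64, and r = 0.58 without 2 oocytes. All of these sums are shares of the same libraries. Against total counts r was -0.64 over the NSN oocytes and 0.20 without the 2 deepest, oocytes 45 and 48. Over the 7 SN oocytes it was 0.49 (rho = 0.61), and 0.73 without oocytes 47 and 55. NSN oocyte 61 had the highest NSN value for 55 of the 150 genes and oocyte 48 the lowest for 70. Oocyte 48 had the most NSN marker counts of its group (7354 CPM) and oocyte 61 all but the fewest (4436 CPM). In NSN Nlrp5 -/- oocytes the lowest value fell in oocyte 14 for 72 genes and the highest in oocyte 29 for 76, and oocyte 14 had the highest NSN marker level of all (8363 CPM).

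**Figure D5:**
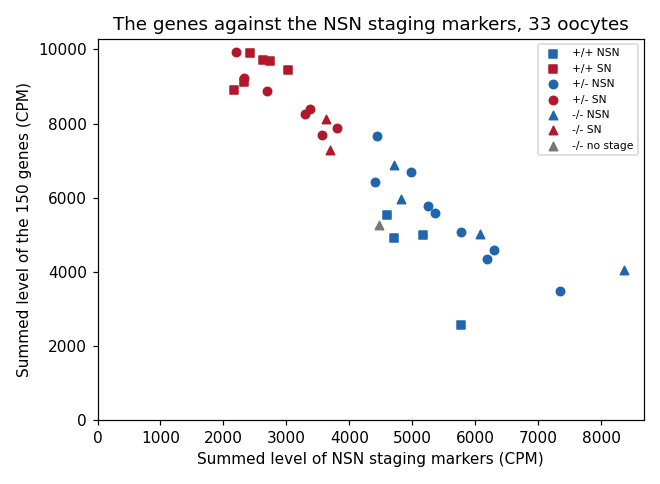
Summed level of the 150 genes against that of the NSN staging markers, both in CPM, in 33 oocytes, with marker shape for genotype and colour for stage. Levels fall from 9918 CPM at 2193 CPM of NSN markers (SN oocyte 46) to 4050 CPM at 8363 CPM (NSN oocyte 14), and oocyte 79 lies lowest at 2571 CPM.

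Between mutant genotypes at the same stage the medians of the 150 genes were slightly below 0. In SN oocytes 87 of the 150 genes had a lower mean in Nlrp5 -/- than in Nlrp5 +/- oocytes (48% of all), with a median log2 difference of -0.14 (0.02 for all genes that could be chosen). This median was 0.01 without oocyte 7. Both Nlrp5 -/- oocytes lay below all Nlrp5 +/- oocytes for 15 genes (5.77% of all) and above them for 12 (5.96% of all). At least 2-fold lower were 4 genes (2.05% of all), BC002059, Prl8a2, Man1a and Lrrtm3, and at least 2-fold higher were 5 (0.702% of all), Tuba3b, Ankrd33b, Gm13180, Ccnd2 and Alpl. In NSN oocytes 92 genes were lower (48.7% of all), with a median of -0.09 that became 0.03 without oocyte 14 and 0.02 without oocytes 13 and 14. At least 2-fold higher there were 5 genes (0.44% of all) and lower 9 (1.02% of all), and the groups were apart for 1 gene in each direction, Gm49719 below (0.69% of all) and Stk32c above (0.464% of all). The sign of both medians rested on single oocytes.

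Tuba3b, an alpha-tubulin gene, showed the largest gap between the mutant genotypes in SN oocytes, a log2 difference of 1.73. It had 204 and 189 CPM in SN Nlrp5 -/- oocytes and 25.3 to 90.1 CPM (median 60.4) in SN Nlrp5 +/- oocytes, and it was also higher in all NSN Nlrp5 -/- oocytes (31, 120.2, 82.1 and 145 CPM) than the median NSN Nlrp5 +/- oocyte (24.2 CPM, from 1.63 to 67 CPM). Alpha-tubulin genes are closely related, and reads can be split between them in counting. BC002059 showed the largest gap in the other direction (-1.56), with 8.88 and 17.6 CPM against 18.9 to 69.9 CPM (median 37.1). Man1a had 6.96 and 16.6 CPM against 22.1 to 38.5 CPM (-1.15).

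The 150 genes spanned more of the genome than others. The median span was 49.9 kb against 28.1 kb for all genes that could be chosen, and 31 genes (20.7%) spanned at least 200 kb, as did 6.02% of all. Of genes with such spans 6.13% were chosen, against 1.57% of genes under 10 kb. In Nlrp5 +/- oocytes the median log2 difference of the 150 genes was 0.43 under 10 kb and 0.67 at 200 kb or more, and in Nlrp5 -/- oocytes it was 0.87 and 0.68. The other genes that could be chosen had medians of -0.16 and 0.07 in the same span classes in Nlrp5 +/- and of 0.10 and 0.08 in Nlrp5 -/- oocytes. Exon length did not follow span, at a median of 4.82 kb against 6.54 kb. Exon length is from GENCODE and span from the GRCm38 coordinates of the counts. The 2 do not always match, as Polr3k had 8.06 kb of exon in a span of 6.49 kb. Exon lengths, and levels per kb, are therefore approximate. Long noncoding RNAs made up 30 of the 150 genes (20%) and 5.36% of genes that could be chosen. Levels were lower, with a median of 25.1 CPM over Nlrp5 +/+ oocytes against 48 CPM for all genes that could be chosen. The rule itself used Nlrp5 +/+ levels, so this difference is only a description. Span, exon length, biotype and promoters were not compared at matched levels. Among the 50 genes with the highest levels (38.4 to 968 CPM), 48 had a higher SN mean in Nlrp5 +/- and 45 in Nlrp5 -/- oocytes, with medians of 0.61 and 0.43. Chromosome 1 held 22 of the 150 genes, 3.98% of its genes that could be chosen.

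Other gene entries overlapped 69 of the 150 genes (46%, against 48.1% of all genes that could be chosen), 53 of them on the other strand, and among these are Lmo3, Selp, Man1a, Atrnl1 and Slco1a5. The 81 genes without overlap had a median log2 difference of 0.54 in Nlrp5 +/- and 0.65 in Nlrp5 -/- oocytes.

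At the edge of the rule, the last 5 genes chosen were Rapgef4, Gm42945, Snrpn, Gpr35 and Prl8a2, with log2 differences of 0.84, 0.84, 0.83, 0.83 and 0.83 in Nlrp5 +/+ oocytes. The next 5, which were not chosen, were Myo16, Fkbp5, Cobl, Myom2 and Anxa2, with 0.83 to 0.82. In Nlrp5 +/- oocytes the first 5 differed by -0.03 to 0.67 and the next 5 by -0.11 to 0.88. When the 150 highest genes of each genotype were taken separately, 55 (36.7%) of the Nlrp5 +/- list and 58 (38.7%) of the Nlrp5 -/- list were among the 150 genes, 29 (19.3%) were shared by the mutant genotypes, and 24 were in all 3 lists. The 24 genes include Epha3, L3mbtl3, Fetub, Tmem171 and Albfm1 besides genes named above.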

How the data were processed

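RNA of 33 single germinal vesicle oocytes was sequenced after physical separation of RNA and DNA, with Nextera XT libraries. Trimming by the authors used Trim Galore and alignment HISAT2, and shallow libraries had been removed. The deposited table holds raw read counts per gene, whose column headers name GRCm38, while the study's methods name GRCm39. It has 35373 entries, of which 52 repeated entries were left out, leaving 35321 genes, and 0 columns of samples were unused. The authors' own comparisons (fold changes and adjusted p-values) and a table of read totals were not used.

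Counts were scaled to CPM over all genes with Python 3.11.15, numpy 2.4.6, pandas 2.3.3 and scipy 1.17.1, and a pseudocount of 1 was added to group means before log2. Depth was the sum of counts on genes. Intervals are 95% exact Poisson intervals and cover counting error only. Stage came from the study's staging. No test was made between stages or genotypes, because the labels name no mouse. Dixon's gap rule was used only to list single oocytes that stand apart. The calculations were tested on simulated data. Promoters came from RefSeq (GRCm38.p6), and exon length and biotype from GENCODE by Ensembl gene ID, with no coordinates taken from it.

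The 150 genes and the gene lists were chosen with earlier results of these data known, and the role groups after the values were seen. Named genes were the 12 with the highest rule value, 5 at either side of the threshold, the 10 highest and 5 lowest differences in Nlrp5 +/- oocytes, the 6 highest and 5 lowest in Nlrp5 -/- oocytes, the 5 highest levels in SN Nlrp5 +/- oocytes, the 5 highest and 5 lowest of Nlrp5 -/- minus Nlrp5 +/- in SN oocytes, and members of the gene lists. Other genes named as examples of a role group or for their overlap were chosen after their values were seen. Alternatives were another scaling, pseudocount, fold, filter and choice of the genes, and leaving out oocytes. The choice without oocyte 79, the genes without overlap, the values without oocytes 13 and 14 and those within a first index were added after the data were seen.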

Additional observations from a re-analysis of the deposited data

Results flagged for a closer look

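An oocyte was listed here when it stood far from the others of its genotype and stage by Dixon's gap rule, which was met in 21 of 235 groups of values (8.94%). Chance flags about 1 in 20 groups of independent samples, but the labels name no mouse and 1 oocyte enters many groups, so the share is only a description. No explanation was tested.

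In SN Nlrp5 +/- oocytes, Lmo3 reached 63.6 CPM in oocyte 46, against 29.7 to 39.9 CPM in the others, and Csmd3 reached 92.4 CPM in oocyte 37, against 56.1 to 68.4 CPM. Both lay further from the NSN oocytes than the rest. Other high values of this group were those of 0610033M10Rik in oocyte 47 (42.2 CPM), of Ccnd2 in oocyte 39 (46.1 CPM, others at most 12.3 CPM), and of Rapgef4 (29.4 CPM) and Prl8a2 (50.6 CPM) in oocyte 38. Low values were those of Gm42945 in oocyte 37 (18.7 CPM, others at least 28.1 CPM) and of Cdc20 in oocyte 55 (33.5 CPM, others 139.9 to 183 CPM). Oocyte 55 is the SN oocyte that the study's clustering put among NSN oocytes.

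In NSN Nlrp5 +/- oocytes, oocyte 63 was high for Rims1 (47.2 CPM), Lrrtm2 (15.2 CPM) and Dnajc5b (18.7 CPM). Oocyte 61 was high for Rapgef4 (41.9 CPM, others at most 23.1 CPM) and Gm42945 (36.0 CPM, others at most 22.4 CPM). Oocyte 56 was high for Gm49719 (28 CPM) and 4931428L18Rik (313.9 CPM, others 136.9 to 205 CPM), oocyte 64 for Albfm1 (11.4 CPM), and oocyte 54 for Cacna2d1 (31.1 CPM).

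Among Nlrp5 +/+ oocytes, Csmd3 was 31.1 CPM in NSN oocyte 70, against at most 5.76 CPM in the others, and Cdc20 was 152 CPM in NSN oocyte 87, against 52.1 to 60.8 CPM. Ccnd2 was 42.5 CPM in SN oocyte 72 and Hnmt 83.1 CPM in SN oocyte 85.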

How the results depend on the processing

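The median difference of the 150 genes stayed above 0 under each of the other settings tried, from 0.48 to 1.33 over 13 in Nlrp5 +/- and from 0.43 to 0.87 over 12 in Nlrp5 -/- oocytes. Leaving out 1 oocyte gave 0.52 to 0.68 and 0.48 to 0.77. Of 204 alternative values of the summaries, 173 stayed within the spread between oocytes (counts, within 1.5 times), 27 moved and 4 reversed. This allowance was wide, at 0.32 for both stage medians. For the NSN median of Nlrp5 -/- minus Nlrp5 +/- it was 0.40, larger than the difference of -0.09 itself. The tally is therefore no measure of how firm a difference is.

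Counts moved most, by construction where fewer genes entered. The genes at least 2-fold higher numbered 17 in Nlrp5 +/- (0.285% of all) and 20 in Nlrp5 -/- oocytes (0.393%) with a pseudocount of 5. Among the 40 genes with at least 50 CPM they numbered 3 and 4 (0.22% and 0.245% of all such genes). At 1.5-fold they were 80 and 77 (3.83% and 6.73% of all), and at 2-fold among the 81 genes without overlap 13 and 17. At the 2-fold mark, 65 genes passed in Nlrp5 +/- oocytes when the genes were chosen with no filter on low values, which shared 40 genes with the 150. In Nlrp5 -/- oocytes 24 of the 75 genes chosen whichever Nlrp5 +/+ oocyte was left out passed it (0.952% of all 8407). For the genes without overlap and those chosen with no filter, the share over all comparable genes was not computed, here or below. The genes with every SN above every NSN oocyte numbered 42 (3.78% of all) and 87 (16.5%) under a looser mark, with the lowest SN oocyte above the NSN median and the highest NSN oocyte below the SN median. They numbered 2 and 11 among genes with at least 50 CPM (0.954% and 10.1% of all such genes), and 5 and 26 among those without overlap. In Nlrp5 +/- oocytes they were 23 without oocytes 55 and 61 (1.49% of all). In Nlrp5 -/- oocytes they were 30 for the 75 genes with the higher rule value and 28 for the 75 always chosen (9.41% of all). Leaving out 1 oocyte gave 10 to 18 (18 without oocyte 61) and 59 to 93 (93 without oocyte 7, which leaves 1 SN oocyte).

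The median of Nlrp5 -/- minus Nlrp5 +/- ran from -0.21 to 0.011 in SN oocytes and from -0.25 to 0.029 in NSN oocytes when 1 oocyte was left out, reversing without oocyte 7 and without oocyte 14. In NSN oocytes it was 0.016 without oocytes 13 and 14 and 0.16 for genes chosen with no filter. The cause was not tested. Cntn6 in Nlrp5 -/- oocytes ran from -0.079 without oocyte 31 to 1.89 without oocyte 29. No paired analysis was possible because the replicate numbers name single oocytes, and the labels tie no oocyte of a genotype to an oocyte of another. Within oocytes 45 to 48, which share a first index, the Nlrp5 +/- median was 1.33, with 104 genes at least 2-fold higher and 133 with every SN above every NSN oocyte (27.5% of all). The last count was 80 (26.4% of all) within oocytes 53 to 56 and, in Nlrp5 -/- oocytes, 110 (32.8% of all) within oocytes 29 to 31, where fewer oocytes are compared.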
